A study of Mus musculus with 2 samples.

Results

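Mir140 and Mir455 are the microRNA (miRNA) genes best known from cartilage. They were followed here in the embryonic facial prominence of the mouse, the outgrowths from which the face is built. The 2 genes were chosen by name, as the rows whose Ensembl identifiers map to Mir140 and Mir455 in the mouse GENCODE annotation, and they are 2 of 1973 counted miRNA genes. Both rows were found in both tables, and both passed the minimum of 10 reads in each library that was required for testing.

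The study holds 1 group of 2 biological replicates of strain B6NCrl at 15.5 days of embryonic age, with no mutant, transgene or treatment named. The pool of replicate 1 held 78 embryos and that of replicate 2 held 62, males and females mixed. Each library therefore averages over many embryos and over every cell type of the dissected tissue, and embryos cannot be told apart within it. The only comparison the design allows is one pool against the other.

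A miRNA gene is transcribed into a long precursor, from which a hairpin is cut and then trimmed to a short mature miRNA. The mature strand guides the silencing complex to messenger RNAs that pair with its seed, bases 2 to 8. Mir140 lies in Wwp2, a gene for a ubiquitin ligase, and is switched on in chondrocytes, the cells of cartilage, under the transcription factor Sox9. Mice without Mir140 have a shortened skeleton and a short face, and Hdac4 and Adamts5 are among the known targets of its miRNAs. Mir455 lies in Col27a1, a gene for a fibrillar collagen of cartilage, and is also expressed in chondrocytes. In the developing face, cartilage includes Meckel's cartilage of the lower jaw and the nasal capsule.

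The sequences below are mature miRNAs of the 2 genes, shown to compare their seeds. They are from RefSeq (GRCm38.p6), which is the build of the count tables (mm10). The RefSeq table gave 3 mature miRNAs of the 2 genes and the hairpin of Mir140, and miR-140-5p and the hairpin of Mir455 were not analysed here. In the mature miRNAs capitals mark the seed, and in the hairpin capitals mark miR-140-3p.
miR-140-3p: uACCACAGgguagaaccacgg
miR-455-5p: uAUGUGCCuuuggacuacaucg
miR-455-3p: gCAGUCCAcgggcauauacac
Mir140 hairpin: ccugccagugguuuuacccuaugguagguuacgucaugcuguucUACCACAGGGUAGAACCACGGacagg

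The 3 printed mature miRNAs carry 3 different seeds. The longest stretch that miR-140-3p shares with miR-455-3p is 6 bases, and with miR-455-5p it is 3 bases. The miRNAs of Mir455 lie at bases 17 to 38 (5p) and 54 to 74 (3p) of the gene and are 15 bases apart. The counts are per gene, so for neither gene do they show which arm the reads came from. Beyond their own hairpins, the longest match to any other hairpin in the RefSeq table was 9 bases for miR-140-3p, 11 for miR-455-5p and 10 for miR-455-3p. Neither annotated hairpin shares a stretch of 20 bases with another annotated miRNA transcript. This matters because the tables set reads with several map positions aside and credit them to no gene. The hairpin of Mir140, 70 bases long with a GC content of 52.9%, folded in ViennaRNA into 30 base pairs with a minimum free energy of −39.1 kcal per mol. Per base this is −0.559 kcal per mol, against a median of −0.406 over 1005 hairpins in the table, of which 7.36% had a lower value.

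The seeds of these 3 miRNAs were then looked for in others, and the seed of miR-140-5p was not searched. Among 1738 mature miRNAs in the RefSeq table, 1 other shares the seed of miR-140-3p, 1 other shares that of miR-455-5p and 0 others share that of miR-455-3p. The partners are printed here to show that the likeness ends at or soon after the seed, which is again in capitals.
miR-497b: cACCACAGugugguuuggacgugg
miR-5129-3p: aAUGUGCCugugcaucucuucc
The gene Mir497b on chromosome 11 was counted with 2785 reads in replicate 1 and 5254 in replicate 2. Of these, 2785 and 5252 lay on the strand opposite to the gene, which leaves 0 and 2 reads on the strand that encodes miR-497b. Mir5129 on chromosome 2 had 1 read in replicate 1 and 3 in replicate 2, all at or below the floor of 3 reads that a count of 0 would allow.

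Both genes lie inside a host gene on the same strand, far from other counted miRNA genes. Mir140 spans chromosome 8, 107551244 to 107551313 (mm10, plus strand), 114879 bases from the first base of Wwp2. In the main coding transcript, Wwp2-201 with 24 exons, it falls in the intron between exons 16 and 17, which is 2141 bases long. It starts 1108 bases after the upstream exon and ends 963 bases before the downstream one. It is intronic in 3 of 11 annotated Wwp2 transcripts and exonic in 1, Wwp2-206, a single unspliced exon of 2653 bases annotated as a retained intron. The other 7 transcripts do not reach it. Mir455 spans chromosome 4, 63256851 to 63256932 (plus strand), 42847 bases from the first base of Col27a1. In Col27a1-201, with 61 exons, it falls between exons 10 and 11 and ends 127 bases before exon 11. All 4 Col27a1 transcripts that reach it hold it in this intron of 2318 bases. No other counted miRNA gene lies in either host. The nearest counted miRNA gene is 289643 bases from Mir140 and 4815752 bases from Mir455. Among the 333 tested genes, 173 (52.0%) likewise had no tested neighbour within 10000 bases.

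**Figure D1:**
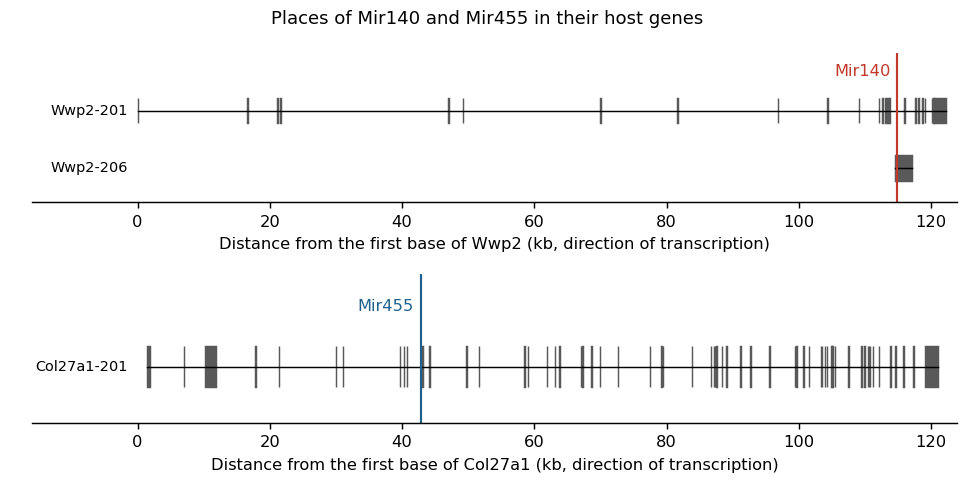
Exons (grey boxes, drawn with a minimum line width) of the host gene transcripts by distance from the first base of the host in kb, with the place of each miRNA gene as a coloured line. Mir140 sits near the end of Wwp2, within an intron of Wwp2-201 and within the single exon of Wwp2-206, and Mir455 sits in the first part of Col27a1, just before exon 11.

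The libraries held 2978463 reads on miRNA genes in replicate 1 and 6408008 in replicate 2, which were 51.0% and 45.5% of all reads. Reads with several map positions made up a further 30.6% and 29.7%. Levels are given as CPM, counts per 1000000 reads on miRNA genes after TMM scaling, which adjusts library sizes so that most genes match. A mature miRNA gives 1 read whatever the length of its gene, so CPM was not divided by length. Read numbers of different miRNAs also depend on how well each sequence is ligated to adapters, so ratios between genes are ratios of reads.

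By reads with 1 map position, Mir140 was among the most abundant miRNA genes of the facial prominence. It had 39380 reads in replicate 1 and 81120 in replicate 2, or 13175.5 and 12703.4 CPM. These levels made it gene 21 of replicate 1 and gene 23 of replicate 2 by reads. Its share of miRNA reads was 1.32% in replicate 1 (95% Clopper-Pearson interval 1.31 to 1.34) and 1.27% in replicate 2 (1.26 to 1.27). The mean level was 12939.5 ± 334 CPM (SD, n = 2), so the SD was 2.58% of the mean. Of the 333 tested genes, 311 had a lower mean. Genes with near-identical copies lose reads with several map positions and can stand too low in this order. This limit applies to all ranks given here, those of Mir455 included.

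Mir455 stood lower and varied more between the pools. It had 6537 reads in replicate 1 and 10897 in replicate 2, or 2187 and 1706 CPM, at ranks 73 and 81. Its share was 0.219% (0.214 to 0.225) in replicate 1 and 0.170% (0.167 to 0.173) in replicate 2. The mean was 1947 ± 340 CPM (SD, n = 2), an SD of 17.5% of the mean, and 256 tested genes had a lower mean. The median over tested genes was 180 CPM, so both genes lay in the upper part of the range. In a bulk sample, more cells of a type and more RNA per cell cannot be told apart. All intervals here are for counting error alone, because they rest on read numbers and hold no term for differences between pools. PCR copies of a molecule are counted as separate reads, so the intervals can be too narrow.

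Nearly all reads of both genes lay on the strand of the gene, as the count columns were read. Mir140 had 0 reads on the opposite strand in replicate 1, which allows a share of up to 0.00762% of its reads, and 2 in replicate 2. Mir455 had 0 in both, which allows up to 0.0459% in replicate 1 and 0.0275% in replicate 2. In Gm25301, the gene next below Mir140 in the order of means, all 31964 and 68974 reads were on the opposite strand.

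**Figure D2:**
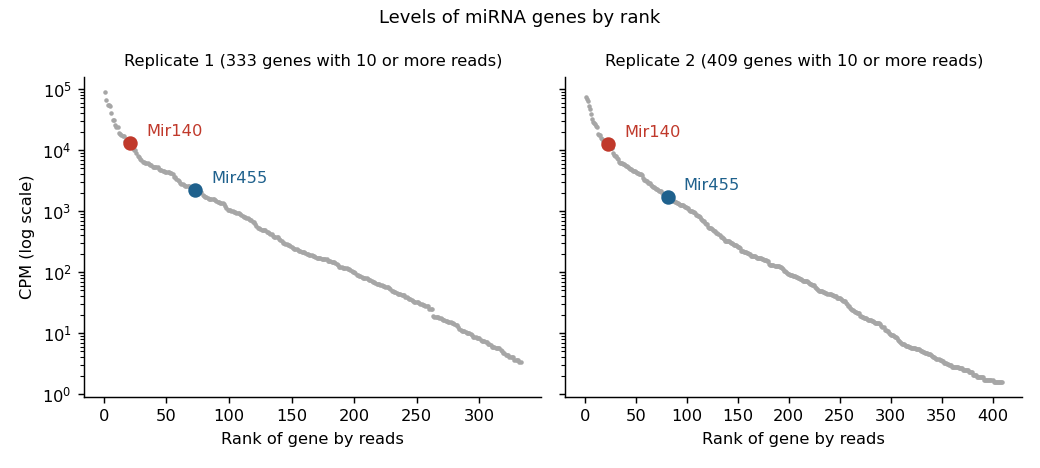
CPM (log scale) of each gene with 10 or more reads against its rank by reads, 1 panel per replicate, with 333 genes in replicate 1 and 409 in replicate 2. Mir140 sits at ranks 21 and 23 and Mir455 at ranks 73 and 81, both well above the lower end of the curve.

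In the order of mean levels, Mir140 was gene 22, close to the genes next above it. Mir411 (13107 ± 363 CPM), a miRNA of the imprinted Dlk1-Dio3 locus, and Mir17 (13014 ± 1350 CPM), of a cluster linked to proliferation, exceeded it by 168 and 74.1 CPM, less than the larger SD of each pair. Mir411 was the higher of the pair in both libraries, while Mir17 was below Mir140 in replicate 1 and above it in replicate 2. Gm25301 below it (10748 ± 75.7 CPM) was 2192 CPM lower in the mean, more than the SD of either gene. Mir449a, a miRNA of ciliated epithelium, came next at 10437 ± 4040 CPM and lay within its own SD of Mir140 (all SD, n = 2).

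Mir455 was gene 77, and its 4 neighbours lay within its SD. Mir324 (2176 ± 71.7 CPM) and Mir361 (2136 ± 7.93 CPM) lay above it, and Mir467d (1863 ± 2.88 CPM) and Mir299b (1793 ± 320 CPM) below. Each differed from Mir455 by 84.2 to 229 CPM, which is less than the SD of Mir455 (all SD, n = 2). Within each library, however, Mir324 was above Mir455 and Mir299b below it, and only Mir361 and Mir467d changed sides. Mir299b reads were almost all on the opposite strand, 6021 of 6036 in replicate 1 and 9990 of 10002 in replicate 2.

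The genes whose levels in the 2 libraries were most like those of Mir140, by Euclidean distance over log2 CPM, were Mir411 (distance 0.03), Mir30e (0.10), Mirlet7d (0.17), Mir17 (0.19) and Mir99b (0.33). For Mir455 they were Mir299b (0.17), Mir483 (0.20), Mir467d (0.27), Mir532 (0.30) and Mir298 (0.31). With 2 libraries this distance describes only a shared level and a shared ratio.

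Both genes were lower in replicate 2, Mir140 by little and Mir455 by more. The division of a gene's reads between the libraries was set against the ratio of their scaled sizes in an exact binomial test, two-sided, and p-values were adjusted by Benjamini-Hochberg over all 333 tested genes. Mir140 had a log2 ratio of replicate 2 over replicate 1 of −0.05 (95% interval −0.07 to −0.04, exact binomial adjusted p = 1.08e-08), or 1.04-fold. Mir455 had a log2 ratio of −0.36 (−0.40 to −0.31, exact binomial adjusted p = 2.02e-54), or 1.28-fold. Both were thus called higher in replicate 1, as were 92 of 333 tested genes (27.6%), while 53.5% were called in either direction. With 1 library on each side there are no residual degrees of freedom. A call compares these libraries and says nothing of pools in general. The smallest p that a one-sided exact permutation test of this design allows is 0.5, and a two-sided one cannot go lower.

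The size of the ratio separated the 2 genes more than the call did. Only 56 of the 333 tested genes (16.8%) had a smaller log2 ratio in size than Mir140, and 234 (70.3%) had a smaller one than Mir455. Among the 21 other tested genes within 2-fold of the level of Mir140, the median size was 0.21, with 6 called higher in replicate 1, 13 called higher in replicate 2 and 2 not called. For the 48 genes within 2-fold of Mir455 the median size was 0.18, with 20, 18 and 10 in the same classes. All tested genes together had a median of −0.02 and a median size of 0.20. The ratio of Mir140 was thus below the median size at its level and that of Mir455 above it, as a description of these libraries.

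**Figure D3:**
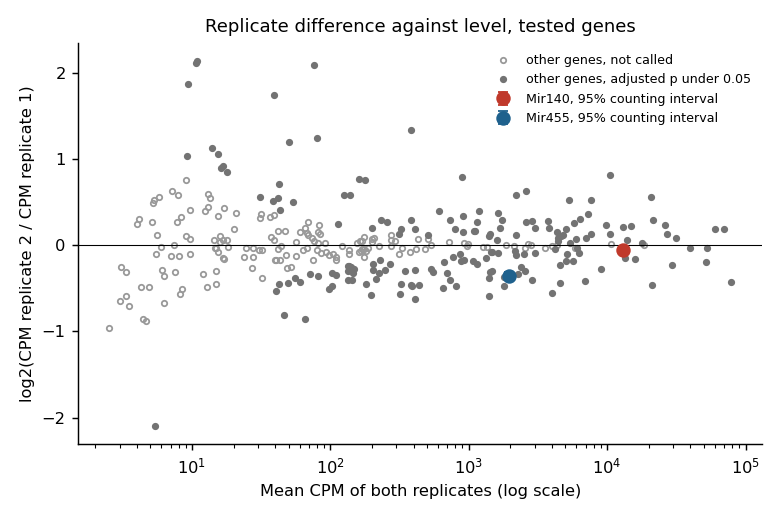
Replicate difference (log2 of replicate 2 over replicate 1, CPM) against mean CPM (log scale) for the 333 tested genes, with called genes filled. Mir140 lies close to 0 at −0.05, and Mir455 lies lower at −0.36 among genes of like level; their 95% counting intervals are narrower than or close to the symbols.

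The balance between the 2 genes differed between the pools, on a measure that needs no scaling factor. Mir140 gave 6.02 reads per Mir455 read in replicate 1 (95% interval 5.87 to 6.18) and 7.44 in replicate 2 (7.30 to 7.60). The intervals did not overlap. The ratio was 1.24-fold higher in replicate 2, a log2 difference of 0.31 (0.26 to 0.35, two-sided Fisher's exact test p = 7.45e-36). Over the 2 replicates the ratio was 6.73 ± 1.00 (SD, n = 2), so Mir140 exceeded Mir455 in each pool by far more than the spread. The Fisher test covers counting error only and, like the calls above, compares libraries.

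To place the pair among the other tissues of the face, reads were set against marker miRNAs of other cell types. Mir140 and Mir455 together had 15363 CPM in replicate 1 and 14410 CPM in replicate 2. The mesenchyme list (Mir214, Mir199a-1 and Mir199a-2) was close to this, at 1.11 times the pair in replicate 1 and 1.06 times in replicate 2. Its sum was almost wholly Mir214, with 16852 of 17053 CPM in replicate 1 and 15093 of 15326 CPM in replicate 2. The smooth muscle list stood at 1.16 and 1.27 times the pair, and the endothelial Mir126a at 1.57 and 1.97 times. Epithelial genes stood at 9.89 and 8.92 times the pair. Below it were the striated muscle list, which the pair exceeded 1.90-fold and 2.37-fold, and the neural list, exceeded 25.8-fold and 28.9-fold. The pair also exceeded the leukocyte list 27.2-fold and 23.2-fold, the erythroid list 78.2-fold and 67.4-fold and the liver Mir122 505-fold and 206-fold. The order of the lists was the same in both replicates except that the neural and leukocyte lists changed places. Mir142, 1 of 4 listed leukocyte genes, was not counted under that name, so the leukocyte values rest on 3 genes. Mir142b, which is not in the list, had 707 and 619 CPM, all on the opposite strand. The whole leukocyte list had 565 and 622 CPM, and the neural list 595 and 498 CPM. The change of places thus depends on leaving Mir142b out, and the leukocyte folds would be clearly lower with it. Of the 8 counted striated muscle genes, Mir133a-1 and Mir133a-2 had 0 reads in both libraries, and of the 8 counted neural genes Mir124a-1 and Mir124a-2 did. Lists with near-identical copies can be undercounted, because reads with several map positions were left out.

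Reads of the leading gene of each list were then used as a yardstick that is free of scaling. Each yardstick is 1 gene, and other genes of its list can go the other way. Of the 7 epithelial genes 3 were called higher in replicate 1, Mir203 among them, and 4 higher in replicate 2. Over all tested genes these shares were 27.6% and 25.8%. Log2 ratios also differed in sign between Mir143 (0.03) and Mir145a (−0.21), and between Mir214 (−0.16) and Mir199a-2 (0.20). Per read of the epithelial Mir203, Mir140 gave 0.145 reads in replicate 1 and 0.188 in replicate 2. Per read of the muscle Mir206 it gave 1.68 and 2.15, and per read of the mesenchymal Mir214 it gave 0.782 and 0.842. These 3 ratios were higher in replicate 2. Per read of Mir143, of smooth muscle, it gave 0.749 and 0.706, and per read of the endothelial Mir126a 0.545 and 0.447, both lower in replicate 2. Mir455 gave 0.0241 and 0.0253 reads per Mir203 read, and 0.278 and 0.289 per Mir206 read. Per Mir214 read it gave 0.130 and 0.113, per Mir143 read 0.124 and 0.0949, and per Mir126a read 0.0905 and 0.0601, all lower in replicate 2. Against Mir203 and Mir206 it therefore changed less than Mir140, and against Mir214, Mir143 and Mir126a it changed more. Of 18 ratios tested by Fisher's exact test and adjusted together, 17 passed. The exception was Mir140 against the neural Mir137 (68.1 and 62.2, Fisher's exact test adjusted p = 0.0745). These tests cover counting error only, and they are not independent, since both members share each yardstick. By the binomial test, 53.5% of all tested genes were called in either direction, so passing does not set the pair apart.

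The marker lists moved between the pools beside the pair. Summed epithelial CPM went from 152004 in replicate 1 to 128519 in replicate 2 with 3 of 7 genes called higher in replicate 1 and 4 higher in replicate 2. Mir203 alone went from 90595.5 to 67445 CPM. Summed striated muscle CPM went from 8091 to 6087, and of its 4 tested genes 2 were called higher in replicate 1 and 0 higher in replicate 2. Most of this sum was Mir206, which went from 7861 to 5896 CPM. Over all tested genes the shares called were 27.6% higher in replicate 1 and 25.8% higher in replicate 2, or 53.5% in either direction. The endothelial Mir126a went from 24156 to 28414 CPM. The part of tissue composition in the ratios of Mir140 and Mir455 was not tested.

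**Figure D4:**
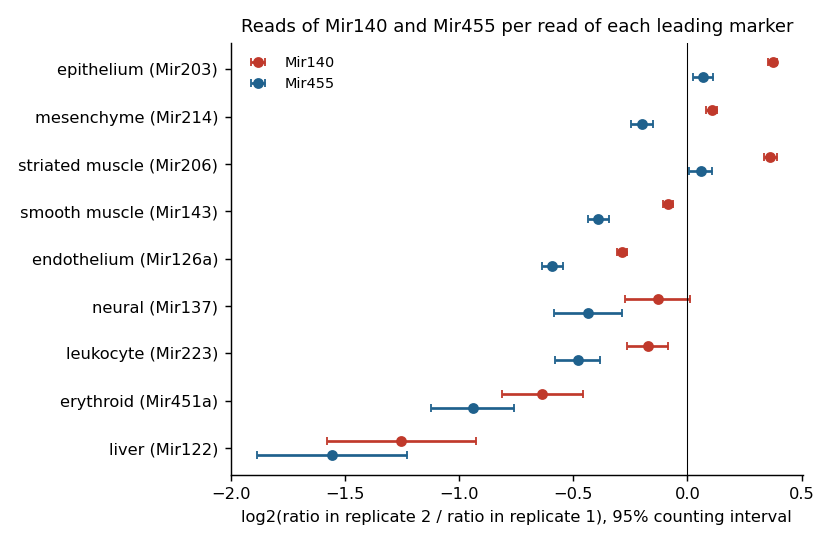
Log2 change from replicate 1 to replicate 2 in reads of Mir140 (red) and Mir455 (blue) per read of the leading gene of each marker list, with 95% counting intervals. Mir140 lies to the right of Mir455 for every marker by the same amount, 0.31, since the pair share each yardstick. Both lie to the right of 0 only for the single genes Mir203 (epithelium list) and Mir206 (striated muscle list).

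Other miRNAs linked to cartilage and bone formed a list of 36 genes, chosen from the literature on chondrocytes, osteoblasts and the transcription factors Sox9 and Runx2. Of these 34 were counted, 27 were tested and 7 had under 10 reads in a library. Mir140 was exceeded in mean CPM by 4 of the 34, and Mir455 by 7. Of the 27 tested genes 8 were called higher in replicate 1 (29.6%, against 27.6% of all tested genes) and 4 higher in replicate 2 (14.8%, against 25.8%), and 15 were not called. The median log2 ratio was −0.05, against −0.02 over all tested genes. The share toward replicate 1 is near the background and that toward replicate 2 is below it, and the difference was not tested. Of the 34 counted genes 16 hold a stretch of 20 bases found in another annotated miRNA, and their values are uncertain.

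The leading genes of the list were broadly expressed or belonged to other tissues as well. Mir322, of a cluster on the X chromosome, had 30534.5 CPM in replicate 1 and 32484 in replicate 2. Mir23a, reported to act on Runx2, had 31664 and 26969 CPM and shares sequence with another hairpin. Mir205, best known from skin epithelium and also reported to act on Runx2, had 24276 and 17709 CPM. Mir214, of the mesenchymal transcript Dnm3os, had 16852 and 15093 CPM. These 4 were the genes above Mir140, and their levels in the 2 libraries did not overlap with those of Mir140.

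The 3 list genes between Mir140 and Mir455 were Mir381 (5256 and 3884 CPM), Mir30a (4363 and 4384 CPM) and Mir27b (4723 and 3220 CPM). Mir27b, added to the named genes after its values were seen, shares sequence with another hairpin. Its log2 ratio of −0.55 (−0.58 to −0.52) and that of Mir381, −0.44 (−0.47 to −0.41), went the same way as that of Mir455. Both were called higher in replicate 1, as were 8 of the 27 tested list genes, while 4 were called higher in replicate 2 and 15 were not called. The value of Mir27b was the lowest of the list, whose ratios ran up to 0.77. Mir322, the leading gene, was called higher in replicate 2 (0.09). Mir30a was not called, at 0.01 (−0.02 to 0.04).

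Of the list members below Mir455, 3 were picked after their values were seen, for their reported links to Col2a1 or Sox9. Mir675, made from H19 and reported to raise the cartilage collagen Col2a1, had 198 and 460 reads, or 66.2 and 72.0 CPM. Mir145a, reported to act on Sox9, had 289 and 249 CPM, and Mir1247, also reported to act on Sox9, had 154 and 157 CPM. Each of them lay below Mir455 in both libraries. Mir145a was called higher in replicate 1 (log2 ratio −0.21, −0.33 to −0.09), and Mir675 (0.12, −0.12 to 0.37) and Mir1247 (0.03, −0.13 to 0.19) were not called.

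**Figure D5:**
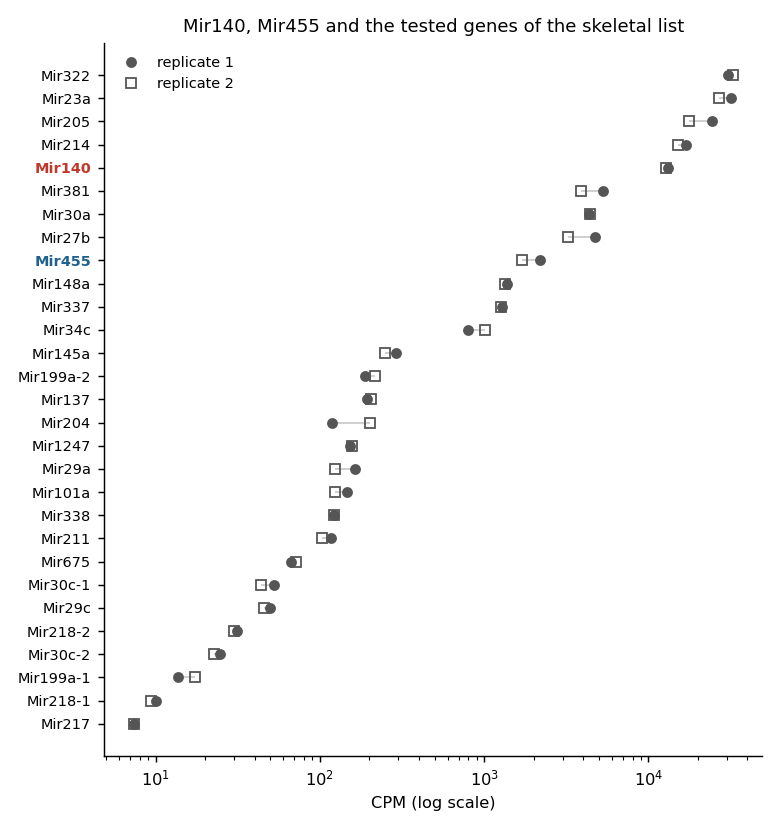
CPM (log scale) in replicate 1 (filled circles) and replicate 2 (open squares) of Mir140, Mir455 and the 27 tested genes of the cartilage and bone list, ordered by mean. Mir140 is exceeded by 4 genes and shows nearly superimposed symbols, while the symbols of Mir455, at 2187 and 1706 CPM, stand apart.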

How the data were processed

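Small RNA libraries from 2 replicate pools of embryonic facial prominence were analysed. Raw counts of reads for each miRNA gene (mm10, GENCODE M4, as the deposited file list states) were made by the authors. The 3 columns carry no names and were read as reads on either strand, the gene strand and the opposite strand. In all 1973 genes of both tables the first equals the sum of the others, and the second holds 96.7% (replicate 1) and 96.6% (replicate 2) of the reads. For the aligner and the counter, the names were not given in the sources used here. Names and positions came from GENCODE M21 (same build), matched by identifier for 1894 of 1973 genes, and sequences from RefSeq GRCm38.p6. Library sizes leave out the lines for unmapped, multiply mapped and unannotated reads (49.0% of reads in replicate 1 and 54.5% in replicate 2).

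Counts on either strand were scaled in edgeR 4.0.16 (R 4.3.3) with TMM factors from genes with at least 10 reads in each library. edgeR's quasi-likelihood test could not be fitted without residual degrees of freedom, so exact binomial and Fisher's exact tests were used, with a threshold of 0.05. Both had been checked on simulated counts with Poisson error only. That is the error these tests assume, so the check says nothing of variation between pools. Intervals of levels are exact, and those of changes in a ratio of genes are normal on the log scale. Named genes were the pair, the 2 genes above and below each, the 5 most like each, genes sharing a seed, the 6 highest of the cartilage and bone list, and the leading gene of each marker list. Mir27b, Mir675, Mir145a, Mir1247, Mir199a-2 and Mir142b were added after their values were seen. The genes and lists were chosen with earlier results of these data known. Alternatives were total-count scaling, DESeq2 1.42.0 size factors, all reads as library size, the gene strand, other filters, each replicate left out and Mir203 left out of the totals. Python 3.11.15, scipy 1.17.1, ViennaRNA 2.7.2 and matplotlib 3.10.9 were used.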

Additional observations from a re-analysis of the deposited data

How the results depend on the processing

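Of 39 values recomputed under alternatives, 35 were classed as unchanged. For ratios this meant the same direction and side of the threshold, for levels a value within 1 SD, and for counts of called genes a value within 1.5-fold. Some could not have moved. With 2 replicates, a level with 1 replicate left out always lies within 1 SD of the mean. The other filters leave the log2 ratio of each member as it was and change only its adjusted p. With all reads of the library as its size, the levels were 6251 CPM for Mir140 and 946 CPM for Mir455, because unassigned reads enter the total. Mir140 stood at 13385 CPM on the gene strand and at 14051.5 CPM once Mir203 was taken from the totals, since both shrink the total. With 1 replicate left out, the level ranged from 12703.4 to 13175.5 CPM for Mir140 and from 1706 to 2187 CPM for Mir455. The log2 ratio of Mir140 ran from −0.23 (all reads as library size) to −0.02 (DESeq2 size factors, exact binomial adjusted p = 0.0127), and that of Mir455 from −0.53 to −0.33. With all reads as library size, the median of all tested genes moved to −0.19, and 160 of 209 called genes (76.6%) were higher in replicate 1, against 92 of 178 (51.7%) with TMM scaling. In the cartilage and bone list the same setting called 16 genes, 14 of them toward replicate 1. No paired analysis was possible because there is 1 group only. The design has 2 libraries, so variation between pools of this tissue rests on a single difference.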
